A study of Homo sapiens with 8 samples.

Results

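The 10 genes described here belong to the Hippo pathway and to the targets of its effector YAP: the coactivators YAP1 and WWTR1, the transcription factors TEAD1 and TEAD4, the kinases LATS1 and LATS2, and the target genes CCN1, CCN2, ANKRD1 and AMOTL2. They were chosen by name, with earlier results of these data known, and all 10 were found among the 16082 genes of the count table. All samples were untreated KYSE150 cells, a single established line grown from a human squamous carcinoma of the esophagus. The genotype was Control in 4 samples and ShHNRNPC in 4, the latter carrying a hairpin against HNRNPC, a nuclear protein that binds nascent transcripts and shapes splicing. Poly(A) RNA was sequenced in each. The labels do not say which hairpin was used or what the control cells carried, nor whether the samples came from separate cultures, so p-values refer to the variation among these libraries alone, part or all of which may be technical. In such bulk RNA, fewer cells that express a gene and less of its RNA per cell cannot be told apart.

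The Hippo pathway is a kinase cascade that limits tissue growth. Its upstream kinases activate LATS1 and LATS2, which phosphorylate YAP and TAZ (the product of WWTR1) and thereby keep them in the cytoplasm. Unphosphorylated YAP and TAZ enter the nucleus, bind TEAD factors and switch on growth and matrix genes, and in stratified squamous epithelium this activity is typical of the proliferating basal layer. LATS2 and AMOTL2 are targets as well as inhibitors of YAP and so form a negative feedback. The control is largely exerted on protein phosphorylation and location, neither of which a transcript count measures.

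Promoter windows of CCN2, ANKRD1 and AMOTL2 are shown first because these target genes changed in different directions. Each covers the 250 bases before a transcription start in the RefSeq sequences of GRCh38.p14, read 5′ to 3′ on the strand of the gene, in lower case. Capitals mark GGAATG, the core letters bound by TEAD factors, on either strand (CATTCC on the other strand), and TGANTCA. The latter is a loose form of the AP-1 site, which usually has C or G in the middle, and allows any middle base. The motifs can share letters at their ends, and no matches overlapped here.
CCN2, chr6:131951373-131951622, minus strand: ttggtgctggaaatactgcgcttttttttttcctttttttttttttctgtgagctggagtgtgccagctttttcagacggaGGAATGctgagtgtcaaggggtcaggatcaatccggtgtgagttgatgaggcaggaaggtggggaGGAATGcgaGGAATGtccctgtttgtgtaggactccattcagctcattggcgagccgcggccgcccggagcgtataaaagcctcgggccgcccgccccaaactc
ANKRD1, chr10:90921088-90921337, minus strand: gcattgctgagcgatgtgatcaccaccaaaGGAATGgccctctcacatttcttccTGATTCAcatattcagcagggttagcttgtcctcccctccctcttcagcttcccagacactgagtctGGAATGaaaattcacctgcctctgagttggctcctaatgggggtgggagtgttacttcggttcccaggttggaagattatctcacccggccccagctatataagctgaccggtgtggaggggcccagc
AMOTL2, chr3:134374448-134374697, minus strand: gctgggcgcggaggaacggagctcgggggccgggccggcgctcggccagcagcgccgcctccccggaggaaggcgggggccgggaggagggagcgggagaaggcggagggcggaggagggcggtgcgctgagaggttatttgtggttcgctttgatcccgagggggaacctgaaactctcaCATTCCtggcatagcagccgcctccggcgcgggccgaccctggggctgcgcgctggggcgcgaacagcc

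The CCN2 window held GGAATG at 3 places, with first bases at -169, -104 and -95 relative to the start, the latter pair separated by only a few letters. The ANKRD1 window held it at 2 places, -220 and -128, with 1 TGANTCA match at -195. That match reads TGATTCA and is not the usual AP-1 form. AMOTL2 has 2 annotated starts: the window shown held 1 match, at -69 and on the opposite strand, and that of the other start held none. The YAP1 window held 1 GGAATG, at -162, and the windows of WWTR1, LATS1 and LATS2 held none. Of 2 LATS1 windows 1 held TGANTCA, as TGAATCA, again not the usual AP-1 form. Of 35116 RefSeq windows of the same length, 11.9% held GGAATG at least 1 time, 0.940% at least 2 times and 0.0826% at least 3 times, and 6.57% held TGANTCA. Promoter sequences were matched for 7 of the 10 genes; CCN1, TEAD1 and TEAD4 were not matched. A match describes letters and was not tested as a binding site, and no relation of matches to the direction of change was tested.

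Library totals were 28323403 to 34913500 counts and did not differ detectably between groups (exact permutation test, two-sided, p = 0.657). HNRNPC, the targeted gene, had a level of 587 ± 12.5 CPM (SD, n = 4) in controls and of 33.9 ± 1.81 CPM in the shHNRNPC samples, 5.78% of control. CPM are counts per 1000000 counts of the library, its total scaled by the TMM factor. A change was called by edgeR's quasi-likelihood test at a Benjamini-Hochberg adjusted p below 0.05 over all 12001 genes tested. Most genes were called: 4640 higher (38.7%) and 4635 lower (38.6%), together 77.3%, and the CPM of the groups did not overlap for 70.8%. Within the knockdown group, replicates 1 and 4 stood apart from 2 and 3 on the second principal component, which held 4.51% of the variance against 80.2% for the first, the axis that separated the groups. The 7 squamous epithelial markers were all expressed, with 3 higher and 4 lower: the keratin KRT5 was at 565 ± 6.60 CPM in controls and 1123 ± 13.7 CPM after knockdown, and the basal transcription factor TP63 at 176 ± 2.15 and 129 ± 1.63 CPM. CDH1 (314 and 508 CPM) and SFN (328 and 351 CPM) also rose. DSG3 (108 and 73.5 CPM), KRT14 (8.35 and 4.89 CPM) and KRT6A (6.04 and 1.96 CPM) fell. The summed level of the 7 was 1493 to 1526 CPM in controls and 2176 to 2218 CPM after knockdown. This sum is weighted to abundant genes such as KRT5, and the median log2 fold change of the 7 was -0.45. Of the leukocyte markers, PTPRC and CD3E were not analysed here, and CD14 and LYZ summed to 0.0312 to 0.207 CPM in control and 0.242 to 0.391 CPM in knockdown libraries, LYZ with at most 1 count. The 4 endothelial markers summed to 2.16 to 2.45 CPM in controls and 1.24 to 1.84 CPM after knockdown. VWF fell, with 50 to 59 counts per control and 20 to 28 per knockdown library. CDH5 was slightly higher (0.419 and 0.481 CPM) and did not pass the test (edgeR adjusted p = 0.65). PECAM1 was at 0.182 and 0.164 CPM, and KDR had at most 4 counts in any library. The 5 fibroblast markers summed to 3.65 to 3.88 CPM in controls and 8.38 to 9.50 CPM after knockdown, most of it COL1A1 (3.26 ± 0.0917 and 7.86 ± 0.222 CPM), while COL1A2 and DCN did not exceed 1 count in any library. The part of these marker shifts in the results below was not tested.

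All 10 members were tested, and 8 were higher and 2 lower after HNRNPC knockdown, against 38.7% and 38.6% of all genes tested. For each of the 10 the groups did not overlap in CPM, as for 70.8% of all genes. The members' median log2 fold change was 0.29, against -0.01 for all genes tested. Most changes were small. The absolute log2 fold change was below 1.5-fold for 9 of the 10, and 71.7% of all called genes were also below that size. Only ANKRD1 changed at least 2-fold, and 6 of the 10 exceeded the median absolute log2 fold change of all genes tested, 0.30.

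**Figure D1:**
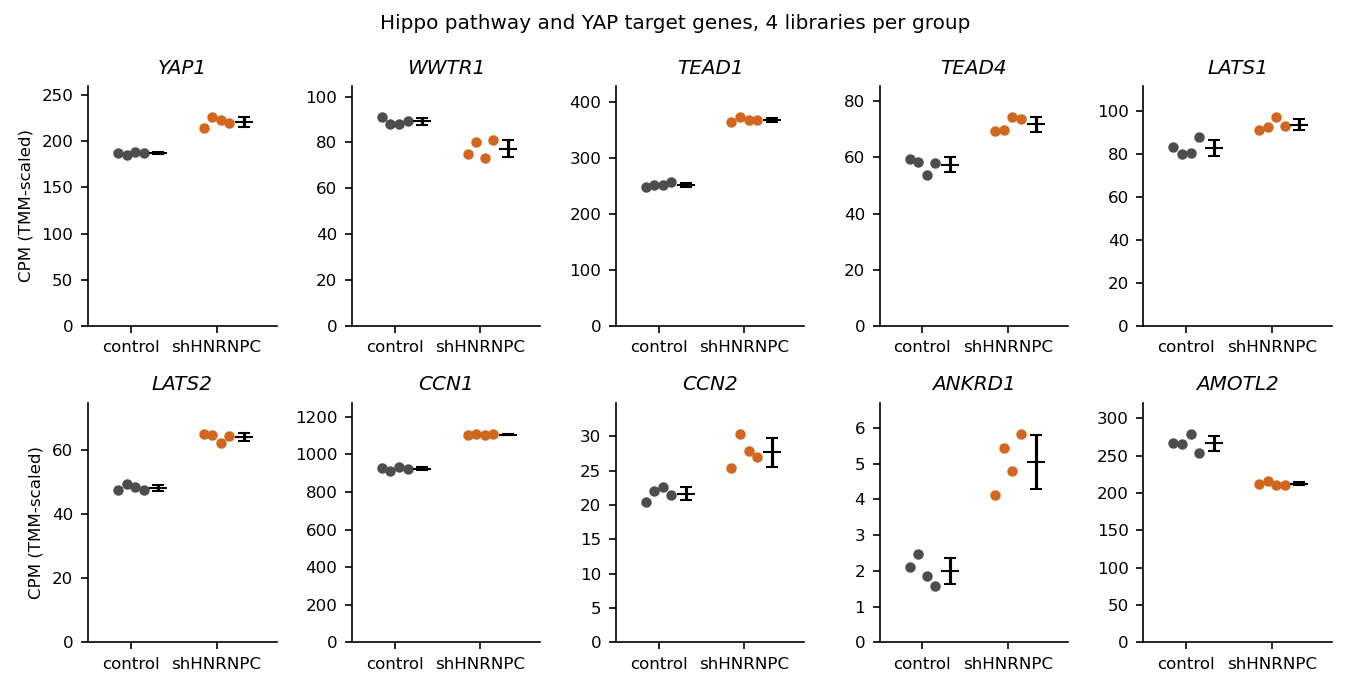
TMM-scaled CPM of the 10 genes in each library (points; 4 control in grey, 4 shHNRNPC in orange), with the group mean and SD beside them and every vertical axis starting at 0. WWTR1 and AMOTL2 are lower after knockdown, the other 8 genes are higher, and no gene has overlapping groups.

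The coactivators changed in opposite directions. YAP1, on chromosome 11 from 102110447 to 102233424 (GRCh38.p14, as for all positions below), was at 187, 185, 188 and 187 CPM in control replicates 1 to 4 and at 214, 226, 223 and 220 CPM in shHNRNPC replicates 1 to 4. Every knockdown library lay above every control library, and the control values were almost identical. YAP1 rose 1.18-fold (log2 fold change 0.24, SE 0.0226, edgeR adjusted p = 5.11e-15). WWTR1, which encodes the paralog TAZ and lies on chromosome 3 from 149517235 to 149724788, was at 91.0, 88.1, 88.2 and 89.3 CPM in the control libraries and at 75.1, 80.1, 73.1 and 81.1 CPM in the knockdown libraries. All knockdown values were lower, and they spread more than the control values. WWTR1 fell to 86.8% of control (log2 fold change -0.20, SE 0.0321, edgeR adjusted p = 6.01e-08). Antisense genes overlap 11.2% of the exon bases of YAP1 and 11.7% of those of WWTR1, and without a stated strand setting their reads cannot be told apart.

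Both TEAD genes, whose products bring YAP and TAZ to DNA, rose. TEAD1, on chromosome 11 from 12674421 to 12944737, was at 248, 251, 252 and 257 CPM in the control libraries and at 365, 372, 367 and 367 CPM in the knockdown libraries. The gap between the groups was far wider than the range within either. TEAD1 rose 1.46-fold (log2 fold change 0.55, SE 0.0202, edgeR adjusted p = 2.73e-34), a larger absolute change than that of 74.9% of genes tested. TEAD4, on chromosome 12 from 2959397 to 3040676, was at 59.6, 58.3, 53.7 and 58.2 CPM in the control libraries and at 69.5, 69.6, 74.3 and 73.6 CPM after knockdown. Its control replicate 3 was the lowest library, and the groups stayed apart. TEAD4 rose by a log2 fold change of 0.32 (SE 0.0359, edgeR adjusted p = 3.44e-12).

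The LATS kinases, which inhibit YAP and TAZ, also rose. LATS1, on chromosome 6 from 149658153 to 149718101, was at 83.2, 79.8, 80.5 and 87.8 CPM in the control libraries and at 91.3, 92.9, 97.1 and 93.3 CPM in the knockdown libraries. The highest control and the lowest knockdown library lay close together, and the change was the smallest of the 10 (1.13-fold, log2 fold change 0.18, SE 0.0313, edgeR adjusted p = 8.32e-07). An antisense gene overlaps 5.25% of the exon bases of LATS1. LATS2, on chromosome 13 from 20973036 to 21061586, was at 47.6, 49.4, 48.3 and 47.5 CPM in the control libraries and at 65.1, 64.8, 62.3 and 64.3 CPM after knockdown. The groups were clearly apart, and LATS2 rose 1.33-fold (log2 fold change 0.41, SE 0.0363, edgeR adjusted p = 4.64e-16).

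Of the 4 target genes 3 rose and 1 fell. CCN1, also called CYR61, encodes a secreted matrix protein that binds integrins and lies on chromosome 1 from 85580761 to 85583950. It was at 929, 913, 933 and 921 CPM in the control libraries and at 1104, 1108, 1103 and 1110 CPM in the knockdown libraries. With a rank of 76 among tested genes by mean CPM it was by far the most abundant member, and its knockdown values were nearly equal. CCN1 rose 1.20-fold (log2 fold change 0.26, SE 0.0172, edgeR adjusted p = 1.71e-21). CCN2, the connective tissue growth factor, is its paralog on chromosome 6 from 131948176 to 131951372. It was at 20.5, 22.1, 22.6 and 21.4 CPM in the control libraries and at 25.4, 30.4, 27.9 and 27.0 CPM in the knockdown libraries, of which replicate 1 was the lowest and replicate 2 the highest. CCN2 rose 1.28-fold (log2 fold change 0.36, SE 0.0553, edgeR adjusted p = 4.39e-08), and an antisense gene overlaps 8.34% of its exon bases.

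ANKRD1, which encodes an ankyrin repeat protein of the nucleus and the muscle sarcomere, lies on chromosome 10 from 90912096 to 90921087 and was the least abundant member. Its raw counts were 71, 83, 59 and 50 in the control libraries and 116, 189, 159 and 174 in the knockdown libraries. In CPM these were 2.10, 2.46, 1.84 and 1.59 against 4.12, 5.44, 4.80 and 5.83. It had the widest relative spread of the 10 genes in both groups, and its lowest knockdown library was well above its highest control library. ANKRD1 rose 2.52-fold (log2 fold change 1.33, SE 0.157, edgeR adjusted p = 1.7e-11), an absolute change larger than that of 95.8% of genes tested.

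AMOTL2, an angiomotin family scaffold that binds YAP and holds it at cell junctions, lies on chromosome 3 from 134355345 to 134375417. It was at 267, 265, 279 and 254 CPM in the control libraries and at 212, 216, 211 and 211 CPM in the knockdown libraries. The knockdown values were close to each other, while the control values spread more. AMOTL2 fell to 79.8% of control (log2 fold change -0.33, SE 0.0229, edgeR adjusted p = 3.93e-20), opposite to CCN1, CCN2 and ANKRD1. A processed pseudogene on the same strand overlaps 3.91% of its exon bases.

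**Figure D2:**
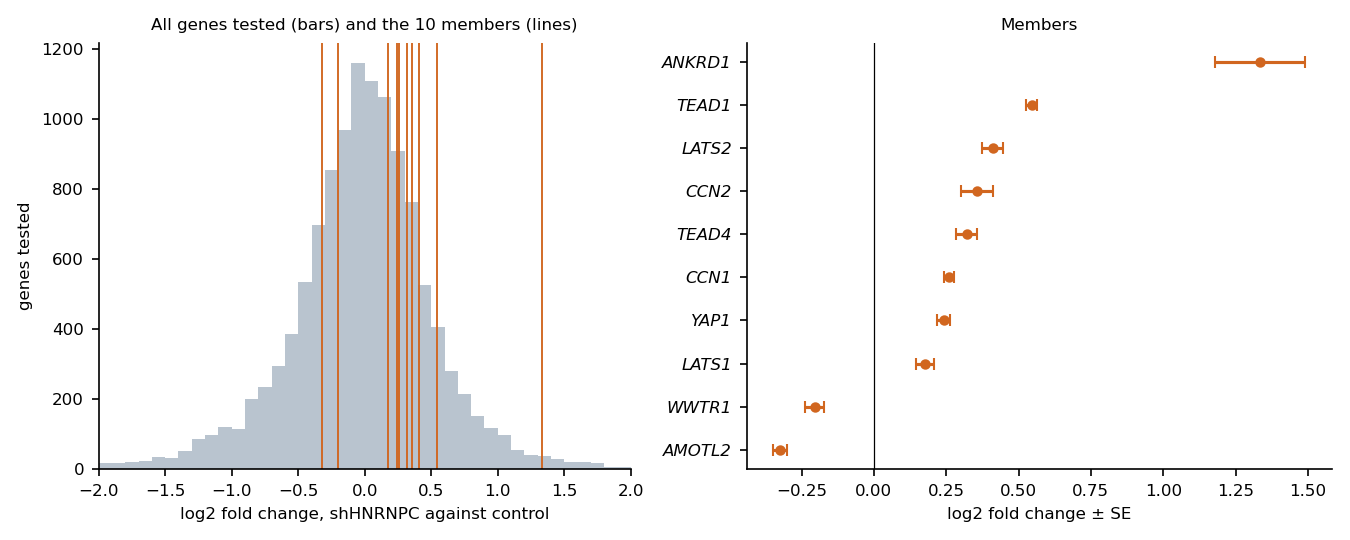
Left, the number of genes tested by log2 fold change (shHNRNPC against control, bars of 0.1 from -2 to 2) with the 10 genes as orange lines. Right, the log2 fold change of each gene with its SE; ANKRD1 at 1.33 lies apart from the others, which range from -0.33 to 0.55.

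Because the coactivators, TEAD factors, LATS kinases and CCN proteins each come as paralogs, the ratio of the members of each pair was compared within libraries, which needs no scaling between libraries. The log2 ratio of WWTR1 to YAP1 counts was -1.04, -1.07, -1.09 and -1.07 in the control libraries and -1.51, -1.50, -1.61 and -1.44 in the knockdown libraries. It differed by -0.45 between the group means, with all knockdown ratios lower (exact permutation test, two-sided, p = 0.0286, the smallest that 70 assignments allow; 0.0381 after Benjamini-Hochberg adjustment over the 4 pairs; n = 4 per group). The ratio of TEAD4 to TEAD1 was -2.14 ± 0.0723 in the control and -2.36 ± 0.0562 in the shHNRNPC libraries (SD, n = 4), again without overlap (difference -0.22, exact permutation test, p = 0.0286, adjusted 0.0381). Thus TEAD1 rose more than TEAD4. LATS2 rose more than LATS1: their log2 ratio went from -0.78 ± 0.0849 to -0.55 ± 0.0660 (difference 0.23, exact permutation test, p = 0.0286, adjusted 0.0381). For CCN2 to CCN1 the ratio was -5.42 ± 0.0649 in the control and -5.32 ± 0.107 in the knockdown libraries, and the groups overlapped (difference 0.09, exact permutation test, p = 0.229). The CCN2 to CCN1 difference was 0.05 without shHNRNPC replicate 2 and 0.13 without shHNRNPC replicate 1, where the groups did not overlap (exact permutation test, p = 0.0571, the smallest that 3 against 4 allow).

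**Figure D3:**
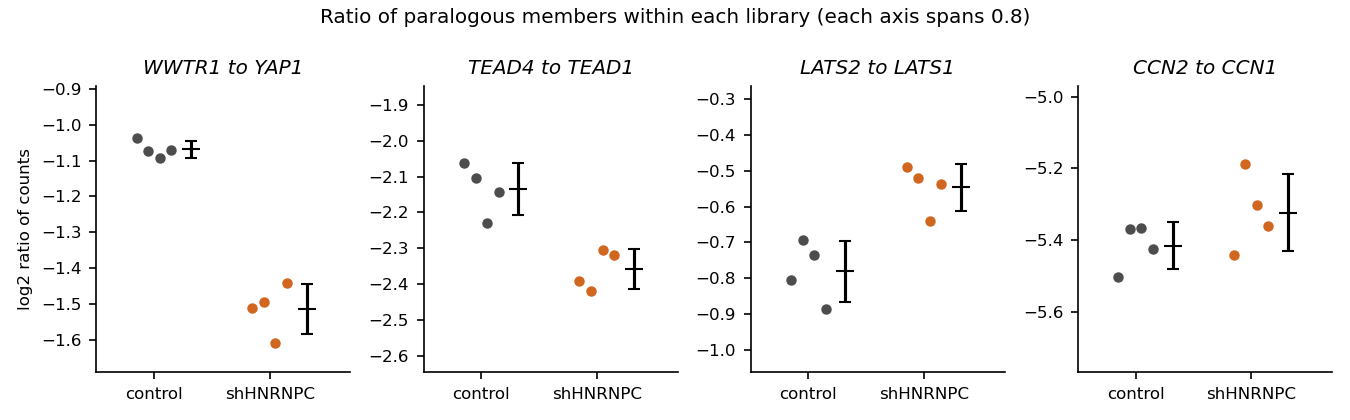
Log2 ratio of raw counts of paralogous genes within each library (points; control in grey, shHNRNPC in orange), with group mean and SD; every vertical axis spans 0.8. The groups are separate for WWTR1 to YAP1, TEAD4 to TEAD1 and LATS2 to LATS1, and overlap for CCN2 to CCN1.

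Levels of different genes were compared as CPM per kilobase of annotated exon. In the control samples CCN1 was highest at 403 ± 3.87, followed by AMOTL2 at 55.7 ± 2.16, YAP1 at 33.2 ± 0.208, TEAD4 at 31.8 ± 1.42, TEAD1 at 27.2 ± 0.391 and WWTR1 at 16.6 ± 0.247 CPM per kilobase (SD, n = 4). LATS1 at 10.7 ± 0.465, CCN2 at 9.26 ± 0.398, LATS2 at 8.75 ± 0.159 and ANKRD1 at 1.01 ± 0.188 CPM per kilobase followed. Neighbours in this order whose library ranges overlapped were YAP1 with TEAD4 and CCN2 with LATS2. In the shHNRNPC samples TEAD4, TEAD1 and YAP1 lay together at 39.8 ± 1.41, 39.7 ± 0.351 and 39.2 ± 0.904 CPM per kilobase, and LATS1, CCN2 and LATS2 at 12.1 ± 0.320, 11.8 ± 0.891 and 11.6 ± 0.226, each with overlapping neighbours. CCN1 stayed first and AMOTL2 second, at 483 ± 1.43 and 44.5 ± 0.531 CPM per kilobase, WWTR1 was at 14.4 ± 0.721, and ANKRD1 remained last at 2.55 ± 0.380. The order rests on exon lengths of GENCODE release 29, which the submitters may not have used; for TEAD4 they add up to 1.81 kilobases.

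None of the 10 genes carries the word GAATGAT in an annotated 3' untranslated region. Most tested genes lack it too: of 11831 with such a region, 1582 carry it. An earlier result of these data had singled this word out. Of 1582 tested genes that carry it 849 fell (53.7%) and 433 rose (27.4%). Of 10249 without it 3729 fell (36.4%) and 4175 rose (40.7%). Because the word came from these same data, this contrast is no independent test of it. A gene counted as a carrier through any transcript, and the length of the untranslated region was not taken into account. Of the 47 further pathway genes described next, FRMD6, FAT4, AJUBA, LIMD1, AMOTL1, CCDC80 and PTPN14 carry it in at least 1 annotated transcript, and its part in their values was not tested.

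The genes that act around the members were listed by role. Of 47 listed genes 42 were tested, of which 27 rose, 8 fell and 7 did not pass the test (83.3% called, against 77.3% of all genes tested; median log2 fold change 0.20, against -0.01). In the core cascade 3 of 5 genes rose and 1 fell (median 0.11). STK3, the MST2 kinase, went from 45.4 ± 1.51 CPM in controls to 56.6 ± 1.95 CPM (0.32 on the log2 scale) and STK4, the MST1 kinase, from 177 ± 4.33 to 190 ± 2.38 CPM (0.11). MOB1A, the LATS cofactor, rose by a log2 fold change of 0.29, from 160 ± 3.87 to 196 ± 4.59 CPM. SAV1, the scaffold that couples these kinases to their substrates, fell from 54.9 ± 1.02 to 49.4 ± 2.57 CPM (-0.15, edgeR adjusted p = 0.000421). MOB1B, the paralog of MOB1A, did not pass the test (-0.05, edgeR adjusted p = 0.257).

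Of 18 tested upstream regulators 10 rose and 5 fell (median 0.09), and the 83.3% called was near the 77.3% of all genes tested. The WW domain scaffolds WWC1, known as KIBRA, and WWC2, which help activate LATS kinases, rose by log2 fold changes of 0.69 and 0.82. WWC1 was at 205 ± 1.72 CPM in the control and 331 ± 4.09 CPM in the knockdown samples, WWC2 at 48.1 ± 0.432 and 85.3 ± 2.37 CPM, although a gene on the opposite strand overlaps 28.7% of the exon bases of WWC2. The kinase TAOK1, which phosphorylates the MST kinases, rose from 131 ± 3.30 to 194 ± 4.82 CPM (0.56). FAT4, an atypical cadherin, had the largest fall of this list, from 29.4 ± 1.58 to 16.4 ± 0.662 CPM (-0.84). Others that fell, named after their values were seen, included FRMD6 (-0.44), STRN4 (-0.39) and AMOTL1 (-0.29), and MAP4K4 (0.02), LIMD1 (-0.01) and WTIP (-0.13) did not pass the test. DCHS1 and AMOT were too low to be tested. DCHS1 had at most 3 counts in any library, and AMOT had 1 to 5 in the control and 10 to 25 in the knockdown libraries.

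Among the other TEAD factors and their vestigial-like cofactors, 3 of 4 tested genes rose and none fell; the 75.0% called was no higher than the 77.3% of all genes tested. VGLL4, a repressor that competes with YAP for TEAD, went from 42.3 ± 1.67 to 63.0 ± 0.468 CPM (log2 fold change 0.58), with 31.5% of its exon bases overlapped by a gene on the opposite strand. TEAD2 rose slightly, from 32.2 ± 2.14 to 36.6 ± 1.18 CPM (0.19), with overlapping groups and 11.9% of its exon bases shared with a gene on the opposite strand. TEAD3 did not pass the test (0.01, edgeR adjusted p = 0.872). VGLL1 had the largest log2 fold change of the list, 2.64 (SE 0.377, edgeR adjusted p = 6.11e-09), on 2 to 14 counts per control library and 32 to 45 per knockdown library; it was 3.37 without control replicate 2. VGLL1 passed the filter on low counts only through the knockdown libraries, so its call is not independent of that filter. The list's median was 0.38, and 0.19 under the 1 CPM filter, which removes VGLL1.

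Of 15 further YAP and TAZ target genes tested, 11 were higher and 2 lower (median log2 fold change 0.37), 86.7% called against 77.3% of all genes tested, of which 38.7% were higher and 38.6% lower. The coagulation initiator F3 (tissue factor) went from 466 ± 9.98 to 764 ± 8.90 CPM (0.71) and ASAP1, an activator of ARF GTPase hydrolysis, from 265 ± 2.77 to 408 ± 7.10 CPM (0.62). CCDC80, a secreted matrix protein, rose from 28.4 ± 1.07 to 42.6 ± 2.26 CPM (0.59), and ARHGEF17 from 3.57 ± 0.456 to 6.41 ± 0.573 CPM (0.84), with 11.4% of its exon bases overlapped by an antisense gene. The 2 that fell, named after their values were seen, were MYOF, a membrane repair protein, from 878 ± 4.88 to 604 ± 4.55 CPM (-0.54), and IGFBP3, which binds insulin-like growth factors (-0.51, edgeR adjusted p = 0.00758). GADD45A and DOCK5 did not pass the test (log2 fold changes -0.04 and -0.04, edgeR adjusted p = 0.206 and 0.115). FOXF2 and NT5E were too low to be tested.

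**Figure D4:**
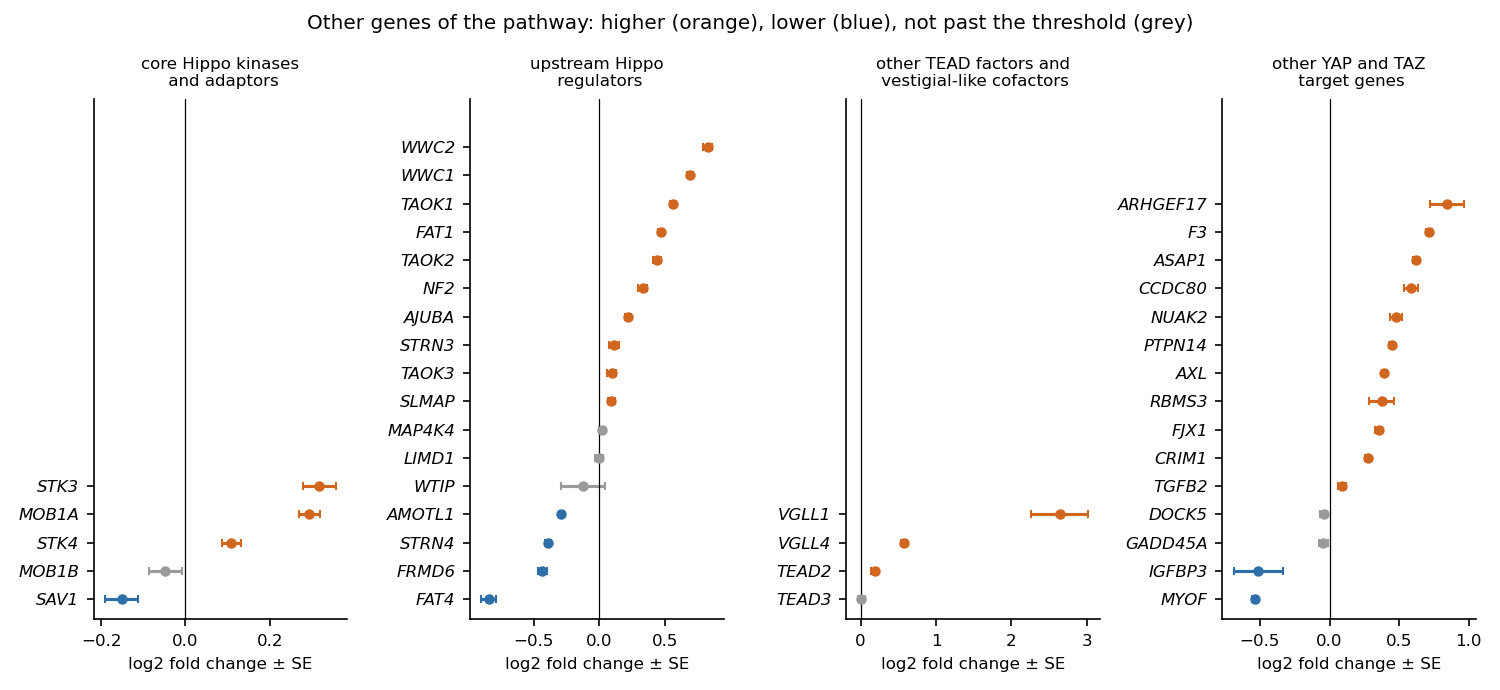
Log2 fold change with SE of the tested genes of 4 lists (shHNRNPC against control; horizontal scales differ between panels), coloured by call; 1 upstream regulator is not shown. In the target list 11 of 15 genes are higher, with MYOF and IGFBP3 lower; VGLL1 at 2.64 has the widest SE.

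Genes most like the extreme members were sought among all other tested genes by the root mean square difference in log2 CPM over the 8 libraries, each gene centred on its control mean. Those nearest to ANKRD1 were SFXN5, S100A9 and HLA-B, at 0.150, 0.151 and 0.160 log2 units. Those nearest to AMOTL2 were CYSTM1, NCLN and CDK9, at 0.0184, 0.0216 and 0.0219 log2 units.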

How the data were processed

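Per the labels, RNA of KYSE150 cells was extracted with TRIzol and made into poly(A) libraries with a VAHTS Universal kit. The series' design text adds paired-end sequencing and trimming of poor reads by fastp, and the submitters' processing notes name hg38. For the aligner, counter, annotation and strandedness the entry is: not given in the sources used here. The authors deposited raw counts, one value for each gene in each library.

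From these, genes were kept with filterByExpr (minimum count 10, minimum total 15), scaled with TMM and tested with edgeR 4.0.16's quasi-likelihood F test (robust, group term alone) in R 4.3.3, with Benjamini-Hochberg adjustment over 12001 genes. SE was obtained as the size of the log2 fold change over the root of F. Log2 CPM used a prior count of 2. Alternatives used DESeq2 1.42.0, other scalings and filters, a replicate block and left-out libraries. Replicate libraries were compared by chi-square per degree of freedom (2.66 to 3.70 within groups, 109 to 124 between), so none was a copy of another. The comparison cannot show whether libraries came from separate cultures. The fit was also run on simulated data, where it called 38 of 50 genes changed 1.25-fold and 11 of 11709 unchanged genes. Few genes changed in that simulation, unlike in these data, so it does not test the scaling used here.

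Members and gene lists were chosen with earlier results of these data known. Named genes are all members and HNRNPC. From each pathway list up to 4 called genes that changed most were named (mean of 1 CPM or more in whichever group was higher). Also named were the most abundant gene of each other marker list, and 3 nearest genes to the largest rise and fall. TP63, CDH1, SFN, DSG3, KRT14, KRT6A, LYZ, CDH5, PECAM1, KDR, COL1A2, DCN and genes listed by a shared count were named after their values were seen. Positions and promoters came from RefSeq (GRCh38.p14), exons and 3' untranslated regions of at least 50 bases from GENCODE release 29. The value of 1 upstream regulator is not reported here.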

Additional observations from a re-analysis of the deposited data

How the results depend on the processing

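All 10 members kept their direction and their call in each of the 16 alternatives (DESeq2, upper-quartile or library-total scaling, no filter, a 1 CPM filter, a replicate block, each library left out, and knockdown replicates 1 and 4 or 2 and 3 left out); the largest adjusted p was 0.000286, for LATS1. CCN2 was at 0.43 without knockdown replicates 1 and 4 and 0.28 without 2 and 3. The median of all genes lay between -0.03 and -0.0001. Without a filter 1 TEAD or vestigial-like gene fell (VGLL3, on at most 4 counts a library), and with upper-quartile factors 4 further target genes fell (GADD45A and DOCK5 besides MYOF and IGFBP3). The number of upstream regulators that rose was 8 to 11 over the alternatives, against 10 in the main fit, and 5 fell in each.

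No pairing by replicate number was visible: deviations of same-numbered libraries correlated at -0.0552 to 0.0170. Such correlations do not show whether same-numbered samples were handled together. With a replicate block the paralog differences were -0.45 for WWTR1 to YAP1, -0.22 for TEAD4 to TEAD1 and 0.23 for LATS2 to LATS1, each with an exact p of 0.125, the smallest that sign flips of 4 pairs allow. With 1 library left out they ranged from -0.47 to -0.41, -0.26 to -0.20 and 0.20 to 0.27, where the smallest exact p is 0.0571. Without knockdown replicates 1 and 4 they were -0.48, -0.23 and 0.20, and without 2 and 3 -0.41, -0.22 and 0.27 (exact p = 0.133, the smallest possible). These losses of the call follow from fewer assignments. The CCN2 to CCN1 difference was 0.17 without knockdown replicates 1 and 4 and 0.01 without 2 and 3.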
